A study of Homo sapiens with 6 samples.

Results

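MHC class I molecules carry peptides of the cell's own proteins to the surface, where CD8 T cells and natural killer cells read them. Each molecule pairs a polymorphic heavy chain with the invariant light chain B2M. Proteasomes cut the peptides, the TAP1 and TAP2 pump moves them into the endoplasmic reticulum, and tapasin (TAPBP) holds the empty heavy chain beside the pump until a peptide is bound. NLRC5 is a transactivator that works through the RFX complex at the promoters of these genes. Interferons are the best known inducers of the whole set, and breast cancer cells that present less class I are seen less well by T cells.

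The MHC class I and peptide loading genes described here are 9 genes of a deposited expression table, taken by gene symbol out of 31835 genes. They are the heavy chain genes HLA-B, HLA-C, HLA-E and HLA-F, the light chain gene B2M, the peptide pump genes TAP1 and TAP2, the tapasin gene TAPBP and the regulator NLRC5. None of the 9 had a repeated entry, with 0 repeats found among them. The libraries came from MDA-MB-231, an established human line of triple-negative breast cancer. There were 3 libraries of cells that overexpressed ADAMTS1, a secreted metalloprotease that cleaves matrix proteoglycans, and 3 libraries of cells with the vector. The series title ties the experiment to nuclear ADAMTS1 zymogen in drug resistance and spread. The sources used here give neither the form of ADAMTS1 in the construct nor whether the cells were a pool or a clone. Nothing in the labels says whether the 3 libraries of a group were grown separately; the p-values then reflect only how far these libraries differ, which may be technical.

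Values are FPKM, fragment numbers corrected for transcript length and library size, so levels of different genes can be set side by side. Differences are of log2(FPKM + 1), the mean of the ADAMTS1 libraries minus that of the vector libraries, with a standard error from a limma fit over the 11897 genes with a mean of at least 1 FPKM. The 9 genes were chosen by pathway and selected on the FPKM difference of this same contrast, in which HLA-B and HLA-C were known to be lower, so their differences are a description and carry no test of their own. Of the 9, 8 passed the low value filter and HLA-F did not. In bulk RNA, fewer cells with a transcript and less of it per cell cannot be told apart.

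The libraries matched their labels. ADAMTS1 was at 499.2, 461.8 and 501.5 FPKM in the ADAMTS1 libraries, against 6.56, 6.72 and 6.99 FPKM in the vector libraries (limma adjusted p = 8.8e-10). Summed FPKM was 259483 to 262864 in the ADAMTS1 libraries and 259169 to 260709 in the vector libraries. The number of reads is unknown. Steps between low values put the depth of the ADAMTS1 libraries at 1.044 to 1.429 times that of vector replicate 1, and the other vector libraries at 1.174 and 1.260 times. All 9 markers of the line were present, with VIM among the highest, while 4 of 7 markers known as low or absent in it, CDH1, ESR1, PGR and GATA3, were below 1 FPKM in every library. The other 3, ERBB2, EPCAM and FOXA1, were above 1 FPKM in every library, with ERBB2 the highest at up to 6.05 FPKM. The 7 haematopoietic markers listed, of 12 looked for, summed to 0.171 to 0.806 FPKM in the ADAMTS1 libraries and 0.378 to 0.701 FPKM in the vector libraries. Each of the 7 was below 1 FPKM in every library.

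HLA-B and HLA-C, classical heavy chains that present peptide to CD8 T cells, were the members that stood apart between the groups. HLA-B was at 54.5, 57.6 and 52.9 FPKM in the ADAMTS1 libraries, against 65.1, 66.2 and 65.2 FPKM in the vector libraries. Every ADAMTS1 library lay below every vector library, and the mean was 0.840 times that of the vector. HLA-C was at 43.9, 41.4 and 42.3 FPKM in the ADAMTS1 libraries, against 53.3, 50.2 and 49.5 FPKM in the vector libraries. Its groups did not overlap either, and the ratio of the means was 0.835. The difference was −0.25 ± 0.034 (SE) for HLA-B, with a 95% interval of −0.33 to −0.17, and −0.25 ± 0.037 for HLA-C, with an interval of −0.34 to −0.17.

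Neither gene passed the threshold of 0.05 once p was adjusted over all genes. The limma adjusted p was 0.0922 for each, a value that 29 genes reached or went below. Over all tested genes 8 passed, or 0.0672% (0.00841% lower and 0.0588% higher in ADAMTS1), and of the members 0 of 8 passed. At an unadjusted p under 0.05 there were 2 of 8 members, both lower, where 6.78% of all tested genes were lower by that rule. Groups without overlap, lower in ADAMTS1, were found in the same 2 members and in 10.6% of all tested genes; 0 members and 8.15% of all tested genes were higher without overlap, which makes 18.8% of all genes in either direction. HLA-B ranked 16 and HLA-C ranked 26 by p among the 11897 genes. Since results of this contrast chose the members, nothing is read from these shares and ranks. The call turned on the low value filter: among genes with a mean of at least 5 FPKM both had an adjusted p of 0.0349.

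HLA-E, the non-classical heavy chain that shows leader peptides to the NKG2A receptor of natural killer cells, did not follow HLA-B and HLA-C. It was at 61.9, 62.3 and 62.6 FPKM in the ADAMTS1 libraries, against 59.7, 64.9 and 62.5 FPKM in the vector libraries. The ADAMTS1 values lay inside the vector range, and the interval of the difference was −0.08 to 0.08. HLA-F, another non-classical heavy chain, was at 0.217, 0.237 and 0.102 FPKM in the ADAMTS1 libraries, against 0.262, 0.149 and 0.300 FPKM in the vector libraries. These levels were below the filter of 1 FPKM, and the groups overlapped.

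B2M, the light chain that pairs with class I heavy chains, was the most abundant member. It was at 88.7, 90.8 and 88.7 FPKM in the ADAMTS1 libraries, against 87.9, 86.8 and 89.1 FPKM in the vector libraries. The groups overlapped, and the interval of the difference, −0.03 to 0.08, did not reach the −0.25 measured for HLA-B. With upper quartile scaling the B2M difference was 0.10 (limma unadjusted p = 0.0388, adjusted p = 0.294). Median of ratios scaling gave 0.03 and common sum scaling 0.02. B2M also varied little within groups: only 2.54% of tested genes had a smaller residual SD.

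**Figure D1:**
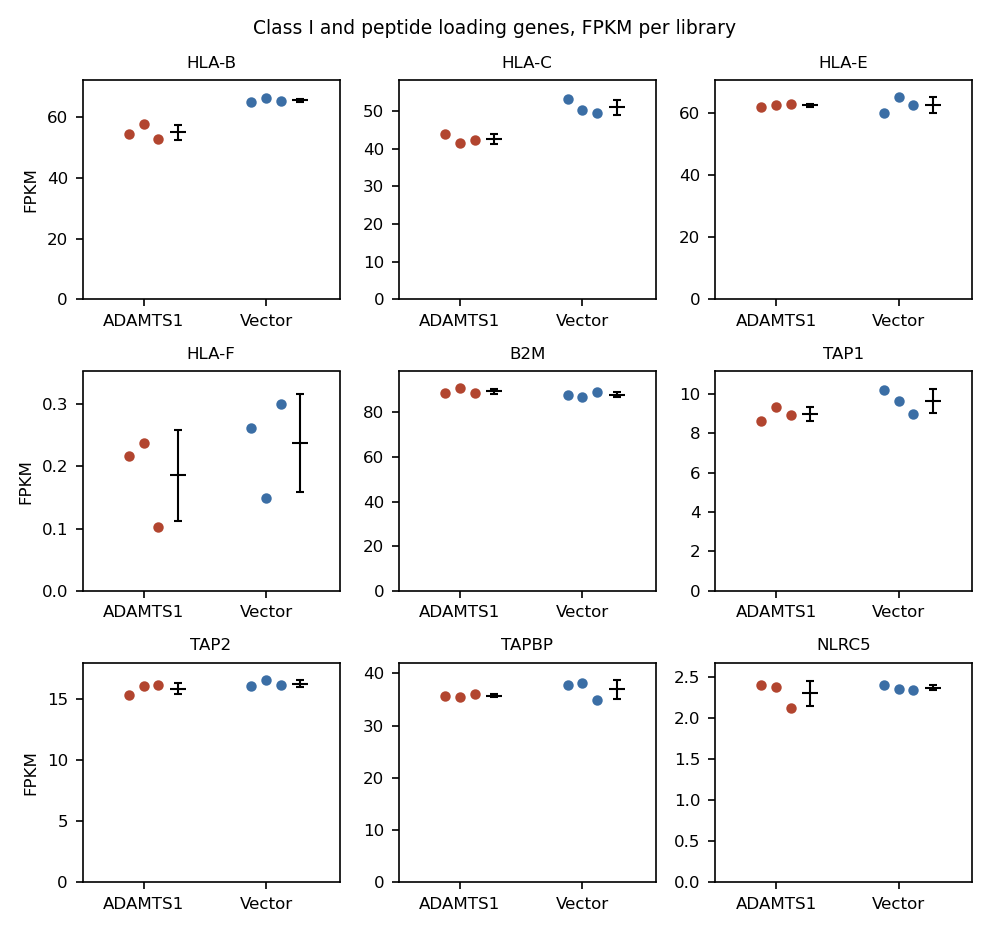
FPKM of each of the 9 genes in the 3 ADAMTS1 and the 3 vector libraries (points), with the mean and SD beside them; each vertical axis starts at 0. HLA-B and HLA-C lie lower in all 3 ADAMTS1 libraries (52.9 to 57.6 and 41.4 to 43.9 FPKM) than in all 3 vector libraries (65.1 to 66.2 and 49.5 to 53.3 FPKM), and the other 7 genes overlap between groups.

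The peptide pump is a heterodimer of TAP1 and TAP2. TAP1 was at 8.63, 9.32 and 8.93 FPKM in the ADAMTS1 libraries, against 10.2, 9.64 and 8.99 FPKM in the vector libraries. The ADAMTS1 values were on the low side but overlapped those of the vector, and the difference was −0.09 ± 0.052 (interval −0.21 to 0.03). TAP2 was at 15.4, 16.1 and 16.2 FPKM in the ADAMTS1 libraries, against 16.1, 16.6 and 16.2 FPKM in the vector libraries, with overlapping groups and an interval of −0.11 to 0.04. TAPBP was at 35.6, 35.5 and 36.1 FPKM in the ADAMTS1 libraries, against 37.8, 38.1 and 34.9 FPKM in the vector libraries. Vector replicate 3 was the lowest of the 6 TAPBP values, and the interval was −0.13 to 0.05. NLRC5 was at 2.40, 2.38 and 2.12 FPKM in the ADAMTS1 libraries, against 2.40, 2.36 and 2.34 FPKM in the vector libraries, so its groups overlapped (interval −0.18 to 0.12). Over the 8 members tested the median difference was −0.038, with 7 below 0, beside a median of −0.008 over all tested genes, of which 53.5% were below 0.

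The order of the levels was B2M, HLA-E, HLA-B, HLA-C, TAPBP, TAP2, TAP1, NLRC5 and HLA-F in the ADAMTS1 group. In the vector group HLA-B stood above HLA-E, at a mean of 65.5 FPKM against 62.4 FPKM, while in the ADAMTS1 group it stood below, at 55.0 FPKM against 62.3 FPKM. All neighbours in each order were separate in the 3 libraries of the group. HLA-B and HLA-E were close in the vector group, where the lowest HLA-B value, 65.1 FPKM, was just above the highest HLA-E value, 64.9 FPKM.

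**Figure D2:**
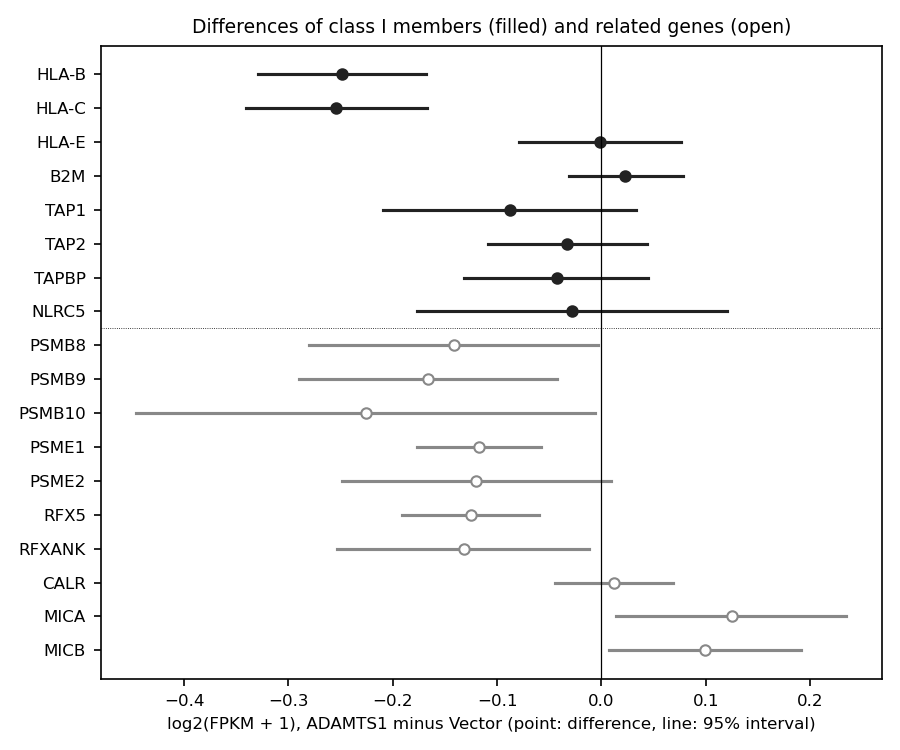
Difference in log2(FPKM + 1), ADAMTS1 minus vector (point), with its 95% interval (line) for the 8 tested members (filled) and for 10 related genes (open), some of which were chosen after their values were seen. The intervals of HLA-B and HLA-C lie wholly below 0, from −0.34 to −0.17 at the widest, while those of the other 6 members cross 0.

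Ratios within a library do not depend on how the libraries were scaled. The ratio of HLA-B to HLA-C was 1.24, 1.39 and 1.25 in the ADAMTS1 libraries and 1.22, 1.32 and 1.32 in the vector libraries, and the groups overlapped. The summed level of HLA-B and HLA-C over HLA-E, a ratio chosen after the values were seen, was 1.59, 1.59 and 1.52 in the ADAMTS1 libraries, against 1.98, 1.79 and 1.84 in the vector libraries. B2M over the summed level of the 4 listed heavy chains was 0.552, 0.562 and 0.562 in the ADAMTS1 libraries, against 0.493, 0.479 and 0.502 in the vector libraries. In both ratios the groups did not overlap: there was less HLA-B and HLA-C RNA per unit of HLA-E, and more B2M RNA per unit of heavy chain, in the ADAMTS1 libraries. This separation follows from how the members were chosen, with HLA-B and HLA-C known to be lower, and is no further result. TAP1 over TAP2 was 0.563 ± 0.0147 in the ADAMTS1 group and 0.589 ± 0.0376 in the vector group (SD, n = 3 each), with overlap.

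**Figure D3:**
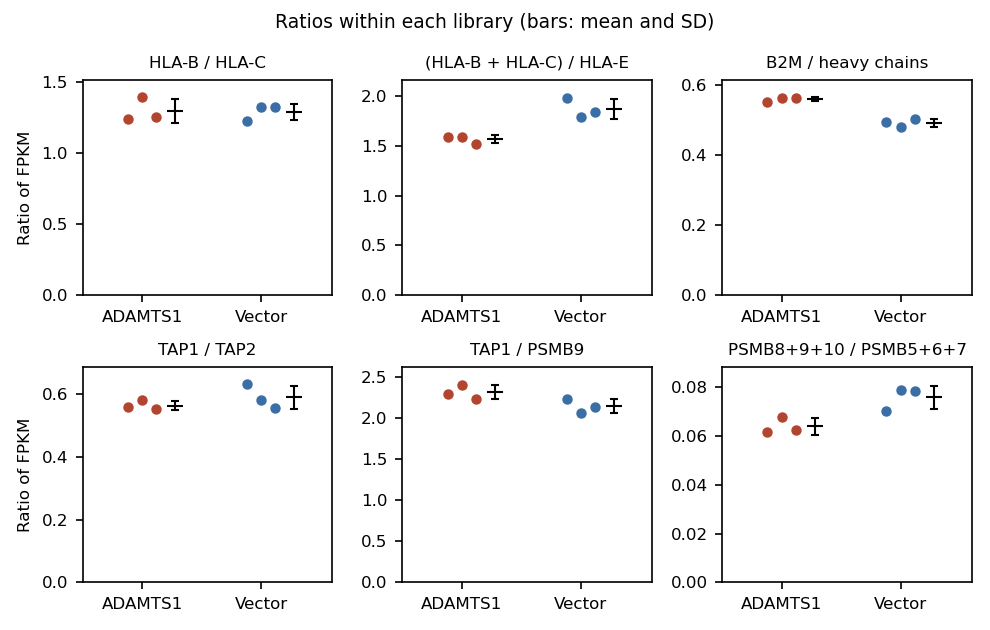
Ratios of FPKM within each library (points) for the 3 ADAMTS1 and the 3 vector libraries, with mean and SD; each vertical axis starts at 0. HLA-B over HLA-C overlaps between the groups, while HLA-B plus HLA-C over HLA-E is lower (1.52 to 1.59 against 1.79 to 1.98) and B2M over the heavy chains is higher (0.552 to 0.562 against 0.479 to 0.502) in the ADAMTS1 libraries.

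Heavy chain genes resemble each other, so reads could be divided wrongly among them. In GENCODE 29 the longest coding transcript has 1547 bases in 8 exons for HLA-B and 1554 bases in 8 exons for HLA-C. Of the distinct stretches of 50 bases in the coding transcripts of HLA-B, 2.1% also occur in a transcript of another gene, against 6.2% for HLA-C, 5.1% for HLA-E and 0.0% for B2M. With stretches of 100 bases the shares were 0.0% for HLA-B and 0.2% for HLA-C. HLA-B and HLA-C share 1.7% and 1.8% of their own stretches of 50 bases with each other. TAP2 had the highest share, 32.7%. These are shares in the reference alleles. How well reads of the line's own HLA-B and HLA-C alleles map to them was not tested.

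The promoters of HLA-B and HLA-C are shown because these were the members whose groups did not overlap, with those of B2M and TAP1 for comparison. Each runs from 250 bases before to 20 bases after the gene start, 5′ to 3′, from RefSeq (GRCh38.p14). The HLA-B window is chr6:31357160-31357429 and the HLA-C window chr6:31272073-31272342, both on the minus strand. The B2M window is chr15:44711267-44711536 on the plus strand, and the TAP1 window, of the start nearest to PSMB9, is chr6:32853685-32853954 on the minus strand. Capitals mark matches on either strand to 5 motifs: the interferon-stimulated response element (ISRE, TTTC then NN then TTTC), the gamma-activated site (GAS, TTCNNNGAA), NF-kB (GGGNNTTCC), NF-Y (CCAAT) and the core of the cyclic AMP response element (CRE, TGACG).
HLA-B: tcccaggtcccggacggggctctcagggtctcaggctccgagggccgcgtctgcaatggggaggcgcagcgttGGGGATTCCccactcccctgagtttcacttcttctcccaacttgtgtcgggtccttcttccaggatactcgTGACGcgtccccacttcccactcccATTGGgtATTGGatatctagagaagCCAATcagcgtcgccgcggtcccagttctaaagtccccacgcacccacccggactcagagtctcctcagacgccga
HLA-C: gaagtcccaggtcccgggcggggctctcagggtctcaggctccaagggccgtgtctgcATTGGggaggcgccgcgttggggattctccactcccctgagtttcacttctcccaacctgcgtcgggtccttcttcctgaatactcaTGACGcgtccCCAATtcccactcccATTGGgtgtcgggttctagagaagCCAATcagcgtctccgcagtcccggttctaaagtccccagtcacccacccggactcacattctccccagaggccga
B2M: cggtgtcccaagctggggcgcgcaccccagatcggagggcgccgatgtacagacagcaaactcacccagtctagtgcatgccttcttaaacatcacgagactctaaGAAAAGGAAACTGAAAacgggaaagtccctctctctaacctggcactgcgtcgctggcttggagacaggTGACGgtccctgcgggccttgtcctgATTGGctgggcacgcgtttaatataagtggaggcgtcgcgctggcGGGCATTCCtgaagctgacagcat
TAP1: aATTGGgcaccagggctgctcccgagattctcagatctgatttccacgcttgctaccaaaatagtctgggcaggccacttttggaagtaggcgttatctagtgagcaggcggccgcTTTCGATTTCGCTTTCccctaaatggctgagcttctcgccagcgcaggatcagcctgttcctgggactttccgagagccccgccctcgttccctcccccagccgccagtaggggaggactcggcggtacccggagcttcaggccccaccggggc
Aligned end to end over the full table window of 300 bases, the HLA-B and HLA-C promoters were identical in 88.5% of columns, against 47.6% for HLA-B and B2M and 79.7% for HLA-B and HLA-F.

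Both HLA-B and HLA-C held the CRE core and a CCAAT box, motifs of the class I enhancer module, to which the RFX complex, CREB-type factors and NF-Y are known to bind. The CRE core began at −106 in HLA-B and −105 in HLA-C, counted from the gene start. CCAAT matches on either strand began at −81, −74 and −56 in HLA-B and at −192, −95, −80 and −56 in HLA-C. Which of these matches belongs to the module was not tested. The NF-kB letters were found in HLA-B at −177 to −169 and not in the HLA-C window. Entries were found for 7 of the 9 genes in the promoter table, and TAP1 had 2 starts there. ISRE letters were found in 5 of these 7, namely HLA-F, B2M, TAP1, TAP2 and TAPBP, while 3.57% of all 35116 promoter windows of 300 bases hold them. NF-kB letters were found in HLA-B, B2M and TAPBP (6.58% of all windows), CCAAT in 5 of 7 (34.6%), the CRE core in 4 of 7 (24.6%) and GAS letters in TAP1, at its other start (7.66%). Matches to different motifs did not overlap in these windows. A match is a description of letters, and a missing match says only that these letters are not in the window.

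The other genes of the pathway were taken from lists written from textbook knowledge, and of these genes 0 passed the limma threshold over all genes in any list. Counts below are also given at an unadjusted p under 0.05, where 5.42% of all tested genes were higher and 6.78% lower. Differences of the loading chaperones were small. CALR (calreticulin) averaged 354 ± 6.84 FPKM in the ADAMTS1 group and 351 ± 4.46 FPKM in the vector group, and CANX (calnexin) averaged 135 ± 1.21 FPKM and 135 ± 2.19 FPKM in the same order (SD, n = 3 each). Of 15 chaperone, peptide trimming and translocation genes, 1 was higher and 0 were lower at the unadjusted p. That was SEC61A1, the channel of the endoplasmic reticulum, chosen after its values were seen, at 95.5 ± 1.77 FPKM in the ADAMTS1 group and 90.0 ± 0.894 FPKM in the vector group (limma adjusted p = 0.256).

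The immunoproteasome exchanges 3 catalytic subunits for interferon-inducible ones, PSMB8, PSMB9 and PSMB10, and PSME1 and PSME2 form its activator. All 5 had differences below 0, with a median of −0.141, and 4 of 5 were lower at an unadjusted p under 0.05; the adjusted p was 0.190 to 0.435, so none passed. With upper quartile scaling, which moved the median of all genes to 0.061, the median was −0.069 and none of the 5 had an unadjusted p under 0.05 (0.117 to 0.498). Median of ratios scaling gave −0.133 (limma unadjusted p 0.00371 to 0.0726), and common sum scaling gave −0.149 (0.00135 to 0.0519). PSMB9 was at 3.75, 3.87 and 3.99 FPKM in the ADAMTS1 libraries, against 4.53, 4.66 and 4.21 FPKM in the vector libraries. PSME1 was at 44.4, 45.6 and 44.1 FPKM in the ADAMTS1 libraries, against 48.5, 49.2 and 48.0 FPKM in the vector libraries. The groups of these 2 genes did not overlap, while those of PSMB8, PSMB10 and PSME2 did. PSMB8 averaged 10.3 ± 0.761 FPKM in the ADAMTS1 group and 11.5 ± 0.567 FPKM in the vector group, and PSMB10 averaged 6.64 ± 0.793 FPKM in the ADAMTS1 group and 7.93 ± 0.829 FPKM in the vector group.

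The list of constitutive counterparts held 7 genes: the catalytic subunits PSMB5, PSMB6 and PSMB7, the subunits PSMA1 and PSMA3 of both proteasome forms, and the activators PSME3 and PSME4. All 7 had differences above 0, as had 5532 of the 11897 tested genes, and the median was 0.040. At the unadjusted p 2 were higher, PSMB7 and PSMA1. PSMB7, a constitutive catalytic subunit, averaged 149.6 FPKM in the ADAMTS1 group and 144 FPKM in the vector group, and PSMB6 averaged 95.8 FPKM and 93.3 FPKM in that order. The summed level of the 3 inducible subunits over that of their constitutive counterparts was 0.0616, 0.0679 and 0.0626 in the ADAMTS1 libraries, against 0.0703, 0.0788 and 0.0785 in the vector libraries. The groups did not overlap in this ratio, which was 0.844 times as high in the ADAMTS1 group. PSMB9 and TAP1 lie head to head with starts 488 bases apart, and TAP1 over PSMB9 was 2.30, 2.41 and 2.24 in the ADAMTS1 libraries and 2.24, 2.07 and 2.14 in the vector libraries, where the groups overlapped.

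**Figure D4:**
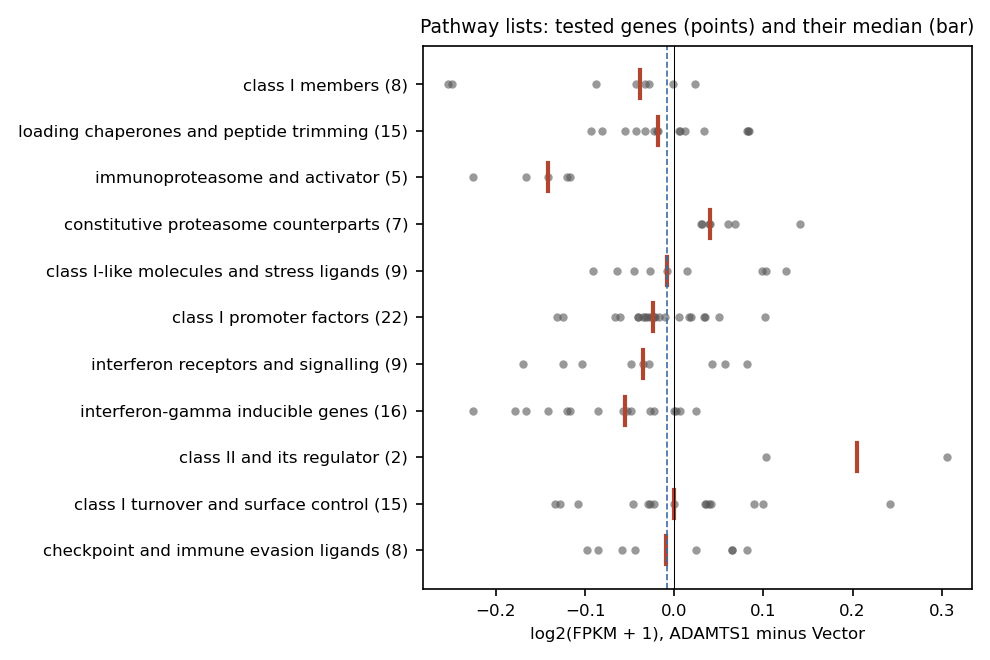
Differences in log2(FPKM + 1), ADAMTS1 minus vector, for the tested genes (points) of each pathway list, with the number tested in brackets and the median as a bar; the dashed line is the median of all tested genes, −0.008. The 5 immunoproteasome genes lie below 0 with a median of −0.141. The 7 genes listed as constitutive counterparts, some of them in both proteasome forms, lie above 0 with a median of 0.040.

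Among 22 tested factors that act at class I promoters, 2 were lower and 0 higher at the unadjusted p, and the median was −0.024. The lower pair were RFX5 and RFXANK, subunits of the complex that binds the X box; RFXANK was chosen after its values were seen. RFX5 was at 15.5, 15.5 and 15.7 FPKM in the ADAMTS1 libraries, against 17.0, 17.2 and 17.0 FPKM in the vector libraries, with no overlap (−0.13 ± 0.028, limma adjusted p = 0.195). RFXANK averaged 11.7 ± 0.322 FPKM in the ADAMTS1 group and 12.9 ± 0.877 FPKM in the vector group (limma adjusted p = 0.370), again with no overlap. With upper quartile scaling the differences were −0.05 for RFX5 (unadjusted p = 0.303) and −0.06 for RFXANK (unadjusted p = 0.252) in limma. Median of ratios scaling gave −0.12 for RFX5 (limma unadjusted p = 0.00379) and −0.12 for RFXANK (limma unadjusted p = 0.0416). RELA and NFKB2, subunits of NF-kB, were at 24.8 ± 0.925 and 23.2 ± 0.152 FPKM in the ADAMTS1 group and at 24.4 ± 1.38 and 23.5 ± 0.949 FPKM in the vector group.

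The difference of IRF1 was close to 0. IRF1, an interferon-induced activator of class I promoters, averaged 2.32 ± 0.0552 FPKM in the ADAMTS1 group and 2.38 ± 0.0562 FPKM in the vector group. Among 9 tested interferon receptor and signalling genes the kinase gene JAK1 was the only member at an unadjusted p under 0.05, at 16.9 ± 0.179 FPKM in the ADAMTS1 group and 15.9 ± 0.246 FPKM in the vector group (limma adjusted p = 0.342); SOCS3, the other of the 2 most abundant members, averaged 22.3 ± 0.396 FPKM and 22.9 ± 0.128 FPKM in that order. Of 16 interferon-gamma inducible genes tested, 4 were lower and 0 higher at the unadjusted p, and all 4 were immunoproteasome genes counted above. The filter left out 8 genes of that list with a mean under 1 FPKM, and of these CXCL10, CXCL11 and SOCS1 were higher and FAS was lower without overlap, all 4 named after their values were seen. CXCL10, a chemokine gene that interferon induces, was at 0.948, 1.18 and 1.01 FPKM in the ADAMTS1 libraries, against 0.641, 0.637 and 0.551 FPKM in the vector libraries. CXCL11, another such chemokine gene, averaged 1.14 ± 0.196 FPKM in the ADAMTS1 group and 0.824 ± 0.0607 FPKM in the vector group (SD, n = 3 each). These 2 genes thus lay on the other side from the immunoproteasome genes, at low levels. The share of genes without overlap was not computed below the filter, so nothing is read from these 4 genes as a group. WARS1, the second most abundant gene of that list after PSME1, averaged 29.3 ± 0.901 FPKM in the ADAMTS1 group and 29.1 ± 0.745 FPKM in the vector group.

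Of the 9 genes 7 lie in the MHC on chromosome 6 of hg38, while B2M (ENSG00000166710) lies on chromosome 15 at 44711487 to 44718851 and NLRC5 (ENSG00000140853) on chromosome 16 at 56989485 to 57083531, both on the plus strand. HLA-B (ENSG00000234745) at 31353872 to 31357188 and HLA-C (ENSG00000204525) at 31268749 to 31272130 are on the minus strand, as are TAP2 (ENSG00000204267) at 32821833 to 32838770, TAP1 (ENSG00000168394) at 32845209 to 32853816 and TAPBP (ENSG00000231925) at 33299694 to 33314387. HLA-F (ENSG00000204642) at 29722775 to 29738528 and HLA-E (ENSG00000204592) at 30489509 to 30494194 are on the plus strand. MICA and MICB, the nearest tested genes with a symbol on the side of HLA-B away from HLA-C, encode stress ligands for the NKG2D receptor and had higher values in the ADAMTS1 libraries. MICB averaged 23.5 ± 1.04 FPKM in the ADAMTS1 group and 21.8 ± 0.545 FPKM in the vector group (limma adjusted p = 0.376). MICA, chosen after its values were seen, averaged 14.0 ± 0.225 FPKM in the ADAMTS1 group and 12.8 ± 0.801 FPKM in the vector group (limma adjusted p = 0.363). The groups of neither gene overlapped. Within 500 kb on either side of the pair, 24 other genes were tested, 4 of them lower without overlap, with a median difference of −0.030. From HLA-F to TAPBP, 76 tested genes outside the list had a median of −0.045, 77.6% were below 0 and 14.5% were lower without overlap, beside 53.5% and 10.6% of all tested genes; 0 passed the limma threshold over all genes. In this region 3 of the 76 were higher without overlap.

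**Figure D5:**
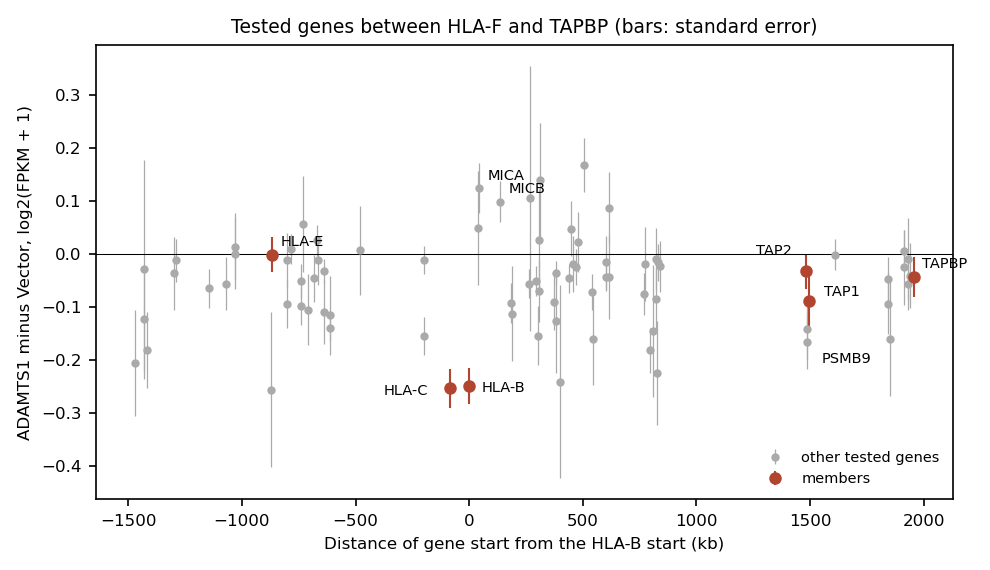
Difference in log2(FPKM + 1), ADAMTS1 minus vector, with its standard error, for 82 tested genes between HLA-F and TAPBP, by the distance in kb of the gene start from that of HLA-B. HLA-B and HLA-C lie near −0.25, MICA and MICB beside them lie above 0, and HLA-E, TAP2 and TAPBP lie within 0.05 of 0.

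Over the 6 libraries the genes with the pattern most like HLA-B, by Pearson correlation of log2(FPKM + 1) over all tested genes outside the list, included APOBEC3C (r = 0.9958), TGFBR3 (0.9911), PSME1 (0.9910) and ATF4 (0.9909). Among them APOBEC3C, a cytidine deaminase gene, had a difference of −0.22, and its levels were 16.6, 17.4 and 16.2 FPKM in the ADAMTS1 libraries against 19.7, 19.7 and 19.3 FPKM in the vector libraries. HLA-C had r = 0.88 with HLA-B, and 268 tested genes had a higher value. All 6 points share the 2 groups. With each group's mean removed, the correlation of HLA-B and HLA-C was −0.37 over the 6 libraries.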

How the data were processed

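RNA of MDA-MB-231 cells was sequenced in 6 libraries, 3 per group, per the labels' protocols. The authors deposited FPKM per gene and library; FastQC, HISAT2, StringTie and hg38 are named, without versions or roles, per the submitters' processing notes. Strand and RNA selection were not given in the sources used here, so reads of antisense partners cannot be told apart. Of 32119 entries, 284 repeats of a symbol were removed, keeping the highest mean, which left 31835 genes. Those with a mean of at least 1 FPKM (11897) entered the limma fit (version 3.58.1, R 4.3.3, eBayes with trend) on log2(FPKM + 1), ADAMTS1 against vector with no further term, two-sided, with Benjamini-Hochberg adjustment over all genes tested and a threshold of 0.05. The pseudocount of 1 reduces differences of low genes. FPKM is relative to the library, and no count test was used. The fit was tested on simulated data. Promoter windows and names came from RefSeq (GRCh38.p14), transcripts from GENCODE 29, and ratios and plots were made with Python 3.11.15, NumPy 2.4.6 and Matplotlib 3.10.9.

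The members and lists were chosen with earlier results of these data known. The naming rule covered the 9 members, the 2 most abundant genes of each list, 9 further pathway genes and the 5 genes most like HLA-B; other genes are marked as chosen after their values were seen. Some genes under this rule are not reported here. Alternatives were a pseudocount of 0.1, no filter, a mean of at least 5 FPKM, upper quartile, median of ratios and common sum scaling, eBayes without trend, a replicate block, and each library left out.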

Additional observations from a re-analysis of the deposited data

How the results depend on the processing

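The number of genes past the threshold, 8 of 11897, was 1 with no filter on low values, 31 with a mean of at least 5 FPKM, 3 with scaling to a common sum, 2 with eBayes without trend, 1 with the replicate block and 1 to 5 with a library left out. It was within 1.5 times of 8 with the other alternatives. Among the members 0 passed in 13 of 14 alternatives and 2, HLA-B and HLA-C, passed with a mean of at least 5 FPKM, where fewer genes are tested. Their differences stayed below 0 in all 14 alternatives, from −0.28 to −0.17 for HLA-B (adjusted p 0.0349 to 0.257) and from −0.28 to −0.18 for HLA-C (0.0349 to 0.273). No gene of another pathway list passed in any of the 14, and the immunoproteasome median ranged from −0.167 to −0.069.

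Differences near 0 turned sign. With upper quartile scaling, which moved the median of all genes from −0.008 to 0.061, HLA-E was at 0.08, TAP2 at 0.04, TAPBP at 0.03 and NLRC5 at 0.03, and the member median at 0.030; B2M kept its sign at 0.10, with an unadjusted p of 0.0388. The same scaling brought PSME1 to −0.04, RFX5 to −0.05, RFXANK to −0.06 and TAP1 to −0.02. HLA-E was at 0.01 with the median of ratios and from −0.03 to 0.03 with a library left out; NLRC5 was from −0.05 to 0.01 with a library left out.

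The labels do not say what the shared replicate numbers mark. Deviations of same-numbered libraries correlated at −0.002, 0.018 and −0.093 over 11897 genes, and those of different-numbered libraries at −0.070 to 0.074. With 3 libraries per group these values show no pairing and cannot exclude it. The replicate block changed no member's call. The absolute depth is unknown, which limits what can be said of HLA-F.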

Other observations

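Class II genes were low in both groups. CIITA, its master regulator, averaged 0.104 ± 0.00570 FPKM in the ADAMTS1 group and 0.109 ± 0.0160 FPKM in the vector group, and none of the HLA class II genes found in the table (HLA-DRA, HLA-DPA1, HLA-DQB1, HLA-DMA, HLA-DMB, HLA-DOB) reached 1 FPKM in any library. The endosomal proteases of that pathway were the 2 members tested. CTSS, the cathepsin that trims the invariant chain, was at 4.49, 4.42 and 4.01 FPKM in the ADAMTS1 libraries, against 3.10, 3.17 and 3.62 FPKM in the vector libraries, without overlap (difference 0.31 ± 0.067, limma adjusted p = 0.195). LGMN averaged 19.6 ± 0.758 FPKM in the ADAMTS1 group and 18.2 ± 0.389 FPKM in the vector group, again without overlap (limma adjusted p = 0.342).

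Of 15 genes linked to turnover or surface control of class I molecules, 3 were higher and 2 lower at an unadjusted p under 0.05, with 0 past the limma threshold over all genes. SND1, the most abundant of that list, averaged 31.0 ± 0.741 FPKM in the ADAMTS1 group and 31.5 ± 0.612 FPKM in the vector group. Of 8 checkpoint and immune evasion genes tested, 0 were past an unadjusted p of 0.05. CD274, which encodes PD-L1, averaged 7.97 ± 0.343 FPKM in the ADAMTS1 group and 8.51 ± 0.284 FPKM in the vector group. NECTIN2 and PVR averaged 50.9 ± 1.65 and 33.3 ± 0.872 FPKM in the ADAMTS1 group and 53.1 ± 1.96 and 31.8 ± 0.490 FPKM in the vector group.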
